A study of Mus musculus with 30 samples.

Results

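The Ikaros family of zinc finger transcription factors was followed through 30 RNA-seq libraries of cultured mouse helper T cells that either expressed or did not express IL-10. The family has 5 genes, which are Ikzf1 (Ikaros), Ikzf2 (Helios), Ikzf3 (Aiolos), Ikzf4 (Eos) and Ikzf5 (Pegasus), and its members were chosen by gene symbol. All 5 were found among the 23420 genes listed, and all 5 were among the 12611 genes with enough reads to be tested.

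The cells were naive CD4 T cells of C57BL/6 mice that carry a Foxp3-GFP reporter together with an IL-10 Thy1.1 reporter, so that cells making IL-10 could be separated from those that did not. They were activated for 72 h with anti-CD3 at 2.5 ug/ml and 6 irradiated CD4-depleted splenocytes per T cell. IL-27 (25 ng/ml) was added to the Tr1 cultures. The pathogenic Th17 (pTh17) cultures had 20 ng/ml each of IL-1beta and IL-23 together with 25 ng/ml of IL-6, and the non-pathogenic Th17 cultures had 2 ng/ml of TGF-beta1 together with 25 ng/ml of IL-6. IL-4 (20 ng/ml) was used for Th2 and IL-12 (20 ng/ml) for Th1. From each culture, live GFP-negative TCRb+ CD4+ cells were sorted into an IL-10 positive and an IL-10 negative compartment, with 2000 cells per lysate and 3 libraries in each of the 10 groups. The labels do not say that the 3 libraries came from separate cultures or animals, so p-values measure the spread between libraries, which may be technical.

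Ikaros factors carry a group of zinc fingers near the N terminus that contacts DNA and a pair near the C terminus through which family members bind each other. Ikaros and Aiolos are abundant in mature lymphocytes and recruit the NuRD chromatin remodelling complex, and both are degraded through the cereblon ubiquitin ligase in human cells treated with lenalidomide. Helios and Eos are best known from regulatory T cells, where Eos is a partner of Foxp3. Aiolos has been linked to silencing of Il2 in mouse Th17 cells, and Ikaros to Il10 expression in mouse Th2 cells. Pegasus is the most divergent member and has a different DNA-binding preference.

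The coding sequence of the second finger of the DNA-binding group is shown for all members to compare them, since in human Ikaros and Aiolos this finger holds the part that cereblon recognises. The sequences below are from the GENCODE M21 annotation of GRCm38, written 5′ to 3′ on the coding strand, with the 4 codons of the zinc-binding cysteines and histidines in capitals.
Ikzf1: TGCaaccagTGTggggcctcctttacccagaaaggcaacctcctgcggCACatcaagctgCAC
Ikzf2: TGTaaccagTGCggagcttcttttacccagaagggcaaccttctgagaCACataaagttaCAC
Ikzf3: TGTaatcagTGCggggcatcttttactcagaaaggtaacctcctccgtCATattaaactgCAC
Ikzf4: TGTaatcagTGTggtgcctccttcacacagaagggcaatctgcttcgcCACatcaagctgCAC
Ikzf5: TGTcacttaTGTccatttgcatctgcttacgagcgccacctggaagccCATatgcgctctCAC
Over these 63 bases, Ikzf4 was 84.1% identical to Ikzf1, and Ikzf2 and Ikzf3 were each 81% identical to it. Ikzf5 was 41.3% identical to Ikzf1, close to the 38.1 to 46% between the second finger of Ikzf1 and other fingers of Ikzf2 and Ikzf3. A search for the finger motif found 4 fingers in Ikzf5 and 5 in the longer Ikzf1 transcript, so their second fingers need not correspond. Fingers 1 and 4 of Ikzf5 were 46% and 49.2% identical to the second finger of Ikzf1. The genes lie apart on GRCm38, with Ikzf1 at chr11:11685003-11772926 on the plus strand and the others on the minus strand, Ikzf2 at chr1:69531214-69687245, Ikzf3 at chr11:98464902-98546031, Ikzf4 at chr10:128630843-128645991 and Ikzf5 at chr7:131388652-131410521. The annotated Ikzf5 gene lies over its whole 21870 bases within that of Fgfr2 on the same strand and overlaps the opposite-strand gene Pstk over 5831 bases, and that of Ikzf2 overlaps the antisense gene Gm29114 over 16494 bases. These are overlaps of whole gene spans, introns included, and shared exon sequence was not examined. No strand setting is stated, so it is not known whether reads from any exons that overlap on opposite strands were told apart by strand. Strand would not separate reads of Fgfr2 and Ikzf5, which lie on the same strand.

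The libraries held between 4394704 and 11850597 expected counts each. The sort was visible in Il10, which was higher in IL-10 positive than in IL-10 negative cells of every culture, by log2 fold changes between 3.62 in Th2 and 6.47 in Tr1. The sorting text in the labels names Thy1.1+ cells for both compartments, and the positive and negative sides given by the sample titles were used here. The 6 CD4 T cell markers summed to between 2810 and 4400 CPM (counts scaled to library size) in every library, with none at 0. B cell markers moved with the IL-10 comparison in pTh17 cultures, where the sum of 12 genes was 237 to 321 CPM in IL-10 positive and 114 to 125 CPM in IL-10 negative libraries. B cells also express Ikzf1 and Ikzf3, and the part of B cell RNA in the pTh17 values was not tested. The B cell sum was also higher in IL-10 positive Th17 (20.6 to 24.7 against 6.88 to 10.3 CPM in IL-10 negative libraries) and Th1 (45.4 to 56.1 against 15.6 to 20.3 CPM) libraries, and in Th2 it was 47 to 64.3 CPM in IL-10 positive and 41.2 to 44.3 CPM in IL-10 negative libraries. The sum of 5 NK cell genes was 59.4 to 68.5 CPM in IL-10 positive and 5.41 to 5.89 CPM in IL-10 negative Tr1 libraries, and 81.7 to 85.3 CPM in IL-10 positive and 6.53 to 8.51 CPM in IL-10 negative Th1 libraries. Of these genes Klre1 was at 0 in both Tr1 groups and in IL-10 negative Th1, Klra8 in IL-10 negative Tr1 and Ncr1 in IL-10 positive Th1. The NK cell sum was also higher in IL-10 positive pTh17 (2.99 to 5.58 against 0.13 to 0.941 CPM) and Th17 (2.24 to 3.18 against 1.06 to 1.24 CPM) libraries, and overlapped in Th2. Only 2 of the 5 genes were tested. Klrk1 was called higher in Tr1, Th1 and pTh17 and lower in Th17, and Klre1 was called higher in Th1, pTh17 and Th17. The sum of 9 myeloid genes was 71.2 to 81.7 CPM in IL-10 positive and 17.4 to 24.5 CPM in IL-10 negative Th1 libraries, and it was also higher in IL-10 positive pTh17 (31.1 to 38.9 against 11.5 to 13.5 CPM) and Tr1 (19.4 to 20.5 against 5.08 to 6.81 CPM) libraries. Of the 7 myeloid genes tested, 3 were called higher in Th1, 5 in pTh17 and 2 in Tr1, where these were the integrins Itgam and Itgax and Lyz2 was at 0 in IL-10 positive libraries. The sum of Cd8a and Cd8b1, the CD8 T cell markers, was 42.7 to 51.4 CPM in IL-10 positive and 23.7 to 27.3 CPM in IL-10 negative Tr1 libraries, and it was also higher in IL-10 positive Th2 (17 to 18.8 against 9.41 to 12.2 CPM) and Th1 (30.3 to 36.5 against 20 to 27.6 CPM) libraries. The part of these markers in the differences of the members was not tested. In bulk samples such as these, fewer cells expressing a gene and less RNA per cell cannot be told apart.

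Levels are given in TPM, which are scaled for library size and transcript length and allow genes to be compared within a library. Ikzf1 and Ikzf3 made up nearly all family transcripts, and each of the other members accounted for at most 6.66% in any group. Ikzf1 accounted for between 43.8% of the summed family TPM in IL-10 positive Th2 cells and 70.5% in IL-10 negative pTh17 cells. Ikzf3 accounted for between 19.9% in IL-10 negative pTh17 cells and 48.9% in IL-10 positive Th2 cells, where it was above Ikzf1. The mean family sum was highest in Tr1 cells, at 295.3 ± 27.2 TPM in the IL-10 positive and 298.3 ± 15.3 TPM in the IL-10 negative compartment (SD, n = 3 each). IL-10 negative Th17 cells were close, at 287 ± 31.3 TPM (SD, n = 3). Their libraries overlapped those of IL-10 negative Tr1 cells (250.8 to 307.1 against 284.2 to 314.6 TPM). The family sum was lowest in pTh17 cells, at 139.3 ± 3.93 TPM in the IL-10 positive and 142.7 ± 11.4 TPM in the IL-10 negative compartment (SD, n = 3 each). Cytokine condition was associated with every member. All 5 differed among the 5 cultures in the IL-10 positive compartment, where 92.2% of all genes tested did, and all 5 did so in the IL-10 negative compartment, where the share was 88.2%, in edgeR's quasi-likelihood test at an adjusted p under 0.05.

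**Figure D1:**
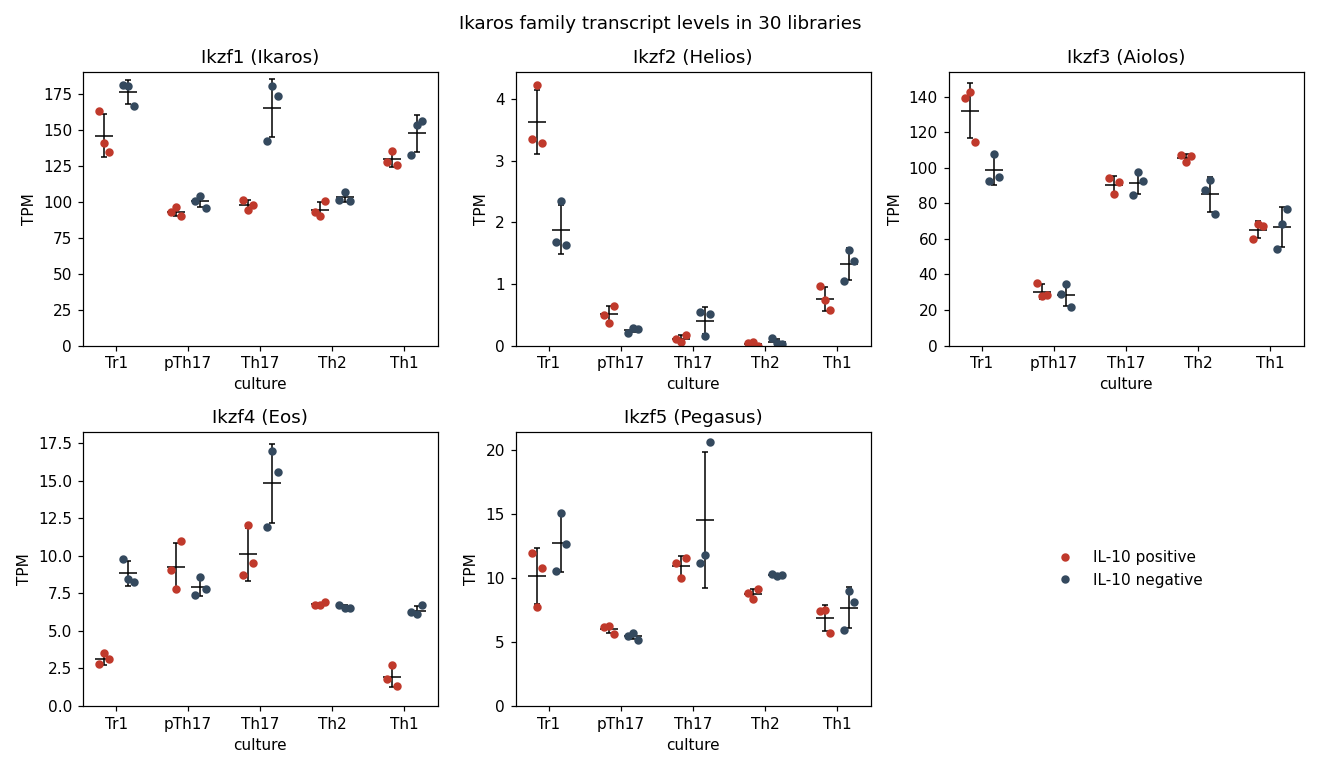
Levels of the 5 Ikaros family genes in TPM (vertical axes, each with its own scale) in 5 cultures, with 1 point per library, IL-10 positive libraries left of IL-10 negative ones, and lines for the mean and SD of 3 libraries. Ikzf4 sits between 1.34 and 3.55 TPM in the IL-10 positive Th1 and Tr1 libraries and at 6.09 TPM or above in all 24 others.

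Ikzf1, the founding member and a regulator of lymphocyte development, was highest in Tr1 cells and, in TPM, lowest in pTh17 cells. Its level averaged 146.3 ± 15 TPM in IL-10 positive Tr1 cells and 93.2 ± 3.12 TPM in IL-10 positive pTh17 cells, against 176.4 ± 8.43 TPM in IL-10 negative Tr1 cells and 100.4 ± 4.21 TPM in IL-10 negative pTh17 cells (SD, n = 3 each). Log2 fold changes come from the edgeR fit of the counts and are given ± SE. The difference between Tr1 and pTh17 was a log2 fold change of 0.64 ± 0.0638 in the IL-10 positive compartment (edgeR adjusted p = 3.17e-11) and 0.66 in the IL-10 negative compartment (edgeR adjusted p = 1e-11), where 62.6% and 62.8% of all genes tested were called. In IL-10 positive cells the order by TPM was Tr1, Th1, Th17, Th2 and pTh17, in which the differences between Tr1 and Th1 (edgeR adjusted p = 0.809) and between pTh17 and Th2 (edgeR adjusted p = 0.163) did not pass the test. In IL-10 negative cells the order was Tr1, Th17, Th1, Th2 and pTh17, in which the difference between pTh17 and Th2 did not pass (edgeR adjusted p = 0.477). In CPM the lowest IL-10 positive group was Th17, at a mean of 246.3 CPM beside 263.3 CPM in pTh17, and the difference of pTh17 over Th17 did not pass (log2 fold change 0.10, edgeR adjusted p = 0.195). The place of Th17 rested on the scale, because the count test put Th17 below Th2 in IL-10 positive cells (log2 fold change -0.20, edgeR adjusted p = 0.00785, with 53% of all genes called) and below Th1 in IL-10 negative cells (log2 fold change -0.28, edgeR adjusted p = 0.000316, with 43.6% of all genes called).

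Ikzf3, which encodes Aiolos, ran closest to Ikzf1 in level and had the wider range among cultures. It averaged 132.2 ± 15.5 TPM in Tr1, 105.5 ± 2.18 TPM in Th2, 90.5 ± 4.72 TPM in Th17, 65.2 ± 4.61 TPM in Th1 and 30.4 ± 4.04 TPM in pTh17 cells of the IL-10 positive compartment (SD, n = 3 each). In IL-10 negative cells it averaged 98.5 ± 8.04 TPM in Tr1, 91.7 ± 6.53 TPM in Th17, 85 ± 9.75 TPM in Th2, 66.7 ± 11.4 TPM in Th1 and 28.6 ± 6.58 TPM in pTh17 cells (SD, n = 3 each). The low level in pTh17 cells stood apart from every other culture in both compartments. Tr1 exceeded pTh17 by a log2 fold change of 2.11 ± 0.107 in IL-10 positive cells (edgeR adjusted p = 1.19e-19) and by 1.64 in IL-10 negative cells (edgeR adjusted p = 1.91e-16). Among neighbours in the order of IL-10 positive cells, the difference between Th17 and Th1 did not pass (edgeR adjusted p = 0.173), and the lead of Tr1 over Th2 (log2 fold change 0.25, edgeR adjusted p = 0.0228) was lost when any of 5 of its 6 libraries was left out (edgeR adjusted p = 0.0539 to 0.163) and with no filter on low counts (log2 fold change 0.11, edgeR adjusted p = 0.227). In IL-10 negative cells the count test put Th17 below Th2 by -0.28 on the log2 scale (edgeR adjusted p = 0.0118, with 67.6% of all genes called), against their order in TPM, a call that was lost without Th2 replicate 8 (edgeR adjusted p = 0.0525) and after thinning to the smallest library (edgeR adjusted p = 0.0761).

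Ikzf2, which encodes Helios, was the lowest member outside IL-10 positive Tr1 cells, with its highest levels in Tr1 and Th1 cells. It reached 3.36, 4.23 and 3.29 TPM in IL-10 positive Tr1 libraries and 0.96, 0.74 and 0.58 TPM in IL-10 positive Th1 libraries, while the IL-10 positive libraries of pTh17, Th17 and Th2 were all between 0 and 0.65 TPM. In IL-10 negative cells Tr1 averaged 1.88 ± 0.396 TPM and Th1 1.32 ± 0.253 TPM, and the other 3 cultures averaged 0.407 TPM or less (SD, n = 3 each). The Tr1 libraries were above all others in the IL-10 positive compartment with no overlap. Tr1 exceeded Th1 there by 2.11 ± 0.289 on the log2 scale (edgeR adjusted p = 8.97e-08), and exceeded Th2, the lowest culture, by 6.49 ± 0.426 (edgeR adjusted p = 1.82e-16), in comparisons that called 55.6% and 71.8% of all genes. The IL-10 positive Th2 values rest on 0 to 4 expected counts per library, so the size of that last fold change depends on few reads. In IL-10 negative cells the difference between Tr1 and Th1 did not pass (log2 fold change 0.30, edgeR adjusted p = 0.447).

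Ikzf4, which encodes Eos, had a different order, with the highest levels in Th17 cells. In IL-10 positive cells it averaged 10.1 ± 1.75 TPM in Th17 and 9.27 ± 1.61 TPM in pTh17, followed by 6.77 ± 0.104 TPM in Th2, 3.15 ± 0.395 TPM in Tr1 and 1.96 ± 0.702 TPM in Th1 cells (SD, n = 3 each). The means of the IL-10 negative compartment were closer to each other as a ratio, at 14.8 ± 2.61 TPM in Th17, 8.84 ± 0.821 TPM in Tr1, 7.92 ± 0.593 TPM in pTh17, 6.58 ± 0.114 TPM in Th2 and 6.34 ± 0.325 TPM in Th1 cells (SD, n = 3 each). Th17 exceeded Th1 by a log2 fold change of 2.02 ± 0.179 in IL-10 positive cells (edgeR adjusted p = 1.17e-12, with 62.3% of all genes called) and by 0.78 in IL-10 negative cells (edgeR adjusted p = 9.34e-05). In IL-10 positive cells the difference between the pTh17 and Th17 conditions did not pass (log2 fold change 0.05, edgeR adjusted p = 0.805). The lead of Tr1 over Th1, 0.53 on the log2 scale (edgeR adjusted p = 0.0493), was lost without Th1 replicate 4 or 6 or Tr1 replicate 17 or 18 (edgeR adjusted p = 0.117 to 0.308), with no filter on low counts (log2 fold change 0.37, edgeR adjusted p = 0.245) and after thinning (edgeR adjusted p = 0.0624). In IL-10 negative cells no difference between neighbours from Tr1 downwards passed the test (edgeR adjusted p = 0.133 to 0.967).

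Ikzf5, which encodes Pegasus, was measured at low levels in all 10 groups. Group means of IL-10 positive cells ran between 5.997 ± 0.312 TPM in pTh17 and 10.9 ± 0.842 TPM in Th17, and those of IL-10 negative cells between 5.46 ± 0.266 TPM in pTh17 and 14.5 ± 5.3 TPM in Th17 (SD, n = 3 each). The wide SD of the last group came from its libraries at 11.11, 11.74 and 20.59 TPM. pTh17 was below Th17 by a log2 fold change of -0.69 ± 0.167 in IL-10 positive cells (edgeR adjusted p = 0.000608) and of -1.01 ± 0.171 in IL-10 negative cells (edgeR adjusted p = 3.04e-06), where 56.7% and 60% of all genes were called. No difference between neighbours in the order passed the test in IL-10 positive cells (edgeR adjusted p = 0.102 to 0.776). Among IL-10 negative cells Th2 was above Th1 (log2 fold change 0.37, edgeR adjusted p = 0.0476, with 65% of all genes called) and pTh17 below Th1 (log2 fold change -0.54, edgeR adjusted p = 0.00962, with 54.1% of all genes called). Both calls were lost after thinning to the smallest library (edgeR adjusted p = 0.0944 and 0.0825), that of Th2 also without any of 5 of its 6 libraries (edgeR adjusted p = 0.0535 to 0.221) and that of pTh17 without Th1 replicate 5 (edgeR adjusted p = 0.073).

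The second question the design puts is how the IL-10 positive cells of a culture differed from its IL-10 negative cells. Of the 25 tests of 5 members in 5 cultures, 12 were called at an adjusted p under 0.05, of which 3 were higher and 9 lower in IL-10 positive cells. By culture, 4 of 5 members were called in Tr1, where 34.7% of all genes tested were called, 1 in pTh17 (18.5% of all genes), 3 in Th17 (58.2%), 1 in Th2 (21.8%) and 3 in Th1 (43.8%). The members' share was thus 80% in Tr1, 60% in Th17 and Th1 and 20% in pTh17 and Th2. It was near the background in Th17, pTh17 and Th2, and in Th1 above it by less than a single call. The Th1 calls of Ikzf1 and Ikzf2 were lost without some single libraries, as given below. These shares of 5 members were not tested against those of all genes. In CPM, IL-10 positive and IL-10 negative libraries were fully apart for 4 members in Tr1 (41.3% of all genes), 2 in pTh17 (32.7%), 1 in Th17 (62.4%), 3 in Th2 (38.7%) and 2 in Th1 (51.4%).

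**Figure D2:**
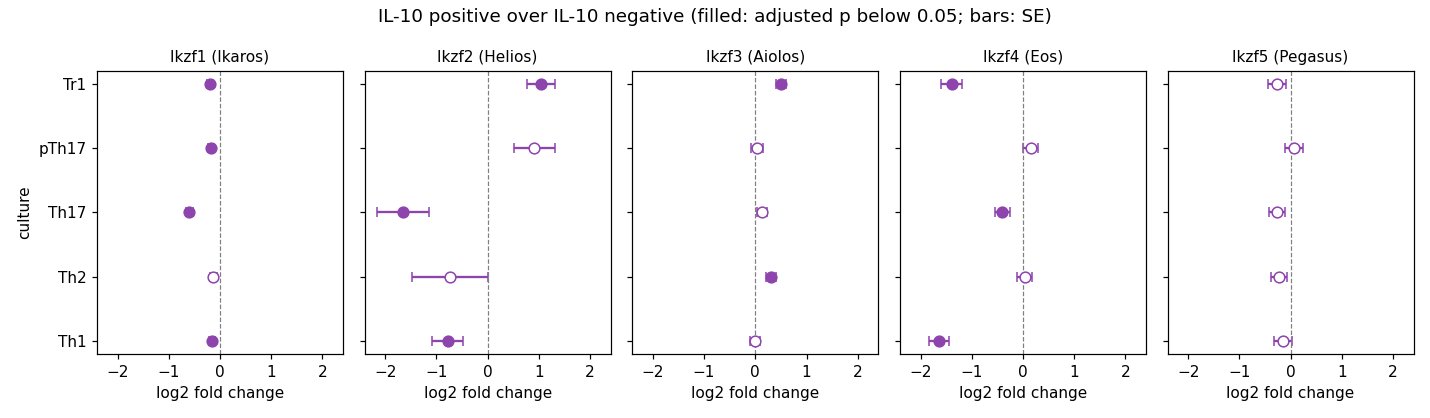
Log2 fold change of IL-10 positive over IL-10 negative cells (horizontal axes) for each member in each culture, with bars for the SE, filled points at an edgeR adjusted p under 0.05 and open points above it. Ikzf4 lies at -1.39 in Tr1 and -1.65 in Th1 and near 0 in pTh17 and Th2, while Ikzf2 is on opposite sides of 0 in Tr1 and Th17.

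Ikzf4 was lower in IL-10 positive cells of 3 cultures. In Tr1 it measured 2.76, 3.55 and 3.13 TPM in IL-10 positive libraries, against 9.78, 8.45 and 8.28 TPM in IL-10 negative libraries. In Th1 it measured 1.81, 2.72 and 1.34 TPM in IL-10 positive libraries, against 6.23, 6.09 and 6.71 TPM in IL-10 negative libraries. In both cultures every IL-10 positive library was below every IL-10 negative one. The log2 fold change was -1.39 ± 0.198 in Tr1 (edgeR adjusted p = 4.77e-07) and -1.65 ± 0.194 in Th1 (edgeR adjusted p = 4.54e-09), and both calls held when each library in turn was left out.

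In Th17 cells Ikzf4 measured 8.71, 12.06 and 9.49 TPM in IL-10 positive libraries, against 11.92, 16.98 and 15.55 TPM in IL-10 negative libraries. The groups touched, since the highest IL-10 positive library was just above the lowest IL-10 negative one. The log2 fold change was -0.41 ± 0.146 (edgeR adjusted p = 0.0165), and the call was lost without IL-10 positive replicate 10 or 12 or IL-10 negative replicate 11 or 12 (edgeR adjusted p = 0.0582 to 0.113). Th2 libraries were nearly identical between compartments, at 6.7 to 6.89 TPM in IL-10 positive and 6.5 to 6.71 TPM in IL-10 negative cells (log2 fold change 0.04 ± 0.147, edgeR adjusted p = 0.9). In pTh17 cells the values were 7.78 to 10.97 TPM in IL-10 positive and 7.41 to 8.57 TPM in IL-10 negative libraries (log2 fold change 0.15 ± 0.151, edgeR adjusted p = 0.566). The IL-10 difference of Ikzf4 itself differed between cultures (F test on 4 df in edgeR, adjusted p = 2.36e-08), as it did for 60.7% of all genes tested.

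Ikzf2 moved in opposite directions by culture. In Tr1 it measured 3.36, 4.23 and 3.29 TPM in IL-10 positive libraries, against 1.68, 2.34 and 1.63 TPM in IL-10 negative libraries. All IL-10 positive libraries were above all IL-10 negative ones, and the log2 fold change was 1.04 ± 0.275 (edgeR adjusted p = 0.00314). In Th1 it measured 0.96, 0.74 and 0.58 TPM in IL-10 positive libraries, against 1.05, 1.55 and 1.37 TPM in IL-10 negative libraries. The Th1 groups did not overlap and ran the other way (log2 fold change -0.78 ± 0.304, edgeR adjusted p = 0.0361), a call that was lost without replicate 5 or 6 of either compartment (edgeR adjusted p = 0.0886 to 0.161).

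In Th17 cells Ikzf2 measured 0.1, 0.06 and 0.18 TPM in IL-10 positive libraries, against 0.55, 0.15 and 0.52 TPM in IL-10 negative libraries. It fell there by 1.66 ± 0.505 on the log2 scale (edgeR adjusted p = 0.00502), on 3 to 15 expected counts per library, and the compartments overlapped. This call was lost without replicate 10 of the IL-10 negative cells (edgeR adjusted p = 0.0519) and when all libraries were thinned to the smallest total (log2 fold change -1.07, edgeR adjusted p = 0.1). In pTh17 cells Ikzf2 measured 0.5, 0.37 and 0.65 TPM in IL-10 positive libraries, against 0.21, 0.29 and 0.27 TPM in IL-10 negative libraries, with no overlap. The pTh17 difference did not pass the test (log2 fold change 0.91 ± 0.399, edgeR adjusted p = 0.113), nor did that in Th2, which rested on 0 to 7 expected counts per library (log2 fold change -0.73 ± 0.75, edgeR adjusted p = 0.554). Culture and IL-10 compartment interacted for Ikzf2 (F test on 4 df in edgeR, adjusted p = 9.47e-05).

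Ikzf3 was higher in the IL-10 positive cells of Tr1 and Th2 cultures. In Tr1 it measured 139.22, 142.82 and 114.41 TPM in IL-10 positive libraries, against 92.73, 107.67 and 95.05 TPM in IL-10 negative libraries. In Th2 it measured 106.95, 103.02 and 106.62 TPM in IL-10 positive libraries, against 87.53, 93.27 and 74.26 TPM in IL-10 negative libraries. Neither pair of groups overlapped. The log2 fold change was 0.50 ± 0.1 in Tr1 (edgeR adjusted p = 0.000132) and 0.31 ± 0.0965 in Th2 (edgeR adjusted p = 0.0154), of which the Th2 call was lost without replicate 9 of the IL-10 negative cells (edgeR adjusted p = 0.0915). In Th17, pTh17 and Th1 the libraries overlapped, and the log2 fold changes of 0.13, 0.03 and -0.00 did not pass the test (edgeR adjusted p = 0.255, 0.9 and 0.986). The interaction was nearer to the threshold for Ikzf3 than for the other called members (F test on 4 df in edgeR, adjusted p = 0.0121).

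Ikzf1 was called lower in the IL-10 positive cells of 4 cultures, with the largest difference in Th17. In Th17 it measured 101.62, 94.33 and 97.9 TPM in IL-10 positive libraries, against 142.62, 180.62 and 173.53 TPM in IL-10 negative libraries, with no overlap. The Th17 log2 fold change on the count scale was -0.60 ± 0.063 (edgeR adjusted p = 1.62e-10). In Tr1 it measured 163.2, 140.78 and 134.85 TPM in IL-10 positive libraries, against 181.47, 181.09 and 166.68 TPM in IL-10 negative libraries. The Tr1 groups also stood apart (log2 fold change -0.19 ± 0.0632, edgeR adjusted p = 0.0169), a call that was lost without replicate 17 of the IL-10 positive cells (edgeR adjusted p = 0.073).

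The remaining differences of Ikzf1 were at the limit of the test. In pTh17 cells the values were 90.2 to 96.42 TPM in IL-10 positive and 95.93 to 104.29 TPM in IL-10 negative libraries, which overlapped in TPM but not in CPM. Their log2 fold change of -0.17 ± 0.0632 (edgeR adjusted p = 0.0488) was lost without any of the 6 libraries (edgeR adjusted p = 0.0528 to 0.218). In Th1 the values were 125.75 to 135.52 TPM in IL-10 positive and 133.07 to 156.62 TPM in IL-10 negative libraries, which overlapped. The Th1 call (log2 fold change -0.16 ± 0.0624, edgeR adjusted p = 0.0345) was lost with DESeq2 (log2 fold change -0.11, adjusted p = 0.148) and without IL-10 positive replicate 4 or 6 or IL-10 negative replicate 5 or 6 (edgeR adjusted p = 0.0734 to 0.197). In Th2, at 90.51 to 100.38 TPM in IL-10 positive and 101.03 to 107.29 TPM in IL-10 negative libraries, the log2 fold change of -0.13 ± 0.0621 did not pass (edgeR adjusted p = 0.148), although the groups did not overlap. The IL-10 difference of Ikzf1 was not equal over the cultures (F test on 4 df in edgeR, adjusted p = 6.39e-05).

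Ikzf5 was called in none of the 5 cultures by edgeR (adjusted p = 0.156 to 0.865). Its log2 fold changes were -0.26 in Tr1, 0.07 in pTh17, -0.26 in Th17, -0.23 in Th2 and -0.14 in Th1, each with an SE between 0.15 and 0.181. In Th2 its libraries nonetheless stood apart, at 8.83, 8.35 and 9.11 TPM in IL-10 positive cells, against 10.26, 10.15 and 10.25 TPM in IL-10 negative cells. In Th17 the value rested on single libraries: it passed without replicate 11 of the IL-10 negative cells (log2 fold change -0.40, edgeR adjusted p = 0.0437) and was 0.07 without replicate 12, the library at 20.59 TPM (edgeR adjusted p = 0.715). A difference between cultures in its IL-10 effect was not detectable (F test on 4 df in edgeR, adjusted p = 0.685). Pstk, which shares its locus, was lower in IL-10 positive Th1 cells (log2 fold change -0.48 ± 0.165, edgeR adjusted p = 0.0159) and was not called in the other cultures (edgeR adjusted p = 0.29 to 0.838).

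Averaged over the 5 cultures with equal weight, 3 of 5 members differed between compartments, against 57.8% of all genes tested. Ikzf4 was lower in IL-10 positive cells (log2 fold change -0.65 ± 0.0758, edgeR adjusted p = 1.76e-09), as was Ikzf1 (-0.25 ± 0.0281, edgeR adjusted p = 7.01e-10), and Ikzf3 was higher (0.20 ± 0.0455, edgeR adjusted p = 0.000348). The averages of Ikzf2 (-0.24 ± 0.212, edgeR adjusted p = 0.337) and Ikzf5 (-0.17 ± 0.0748, edgeR adjusted p = 0.0572) did not pass. That of Ikzf5 passed without any of 7 single libraries (edgeR adjusted p = 0.0238 to 0.0482). The IL-10 difference of Ikzf1, Ikzf2, Ikzf3 and Ikzf4 was unequal over the cultures, so these averages combine unlike values.

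Ikaros and Aiolos proteins pair with each other, and the ratio of their transcripts was read within each library. This ratio was chosen after the values of both genes were seen. Ikzf3 TPM per Ikzf1 TPM was 0.848 to 1.01 in IL-10 positive and 0.511 to 0.595 in IL-10 negative Tr1 libraries, and 0.904 to 0.941 in IL-10 positive and 0.535 to 0.594 in IL-10 negative Th17 libraries. In Th2 it was 1.06 to 1.15 in IL-10 positive and 0.735 to 0.869 in IL-10 negative libraries, so that Ikzf3 exceeded Ikzf1 in all 3 IL-10 positive Th2 libraries. In these 3 cultures the compartments did not overlap, and the ratio was 1.62-fold, 1.66-fold and 1.36-fold higher in IL-10 positive Tr1, Th17 and Th2 cells. In pTh17 (0.287 to 0.377 in IL-10 positive and 0.227 to 0.335 in IL-10 negative libraries) and in Th1 (0.469 to 0.534 in IL-10 positive and 0.41 to 0.492 in IL-10 negative libraries) the compartments overlapped. An exact two-sided permutation test gave p = 0.1 in Tr1, Th17 and Th2, the smallest that 3 against 3 libraries allow, p = 0.2 in Th1 and p = 0.5 in pTh17. Adjusted over the 5 cultures, the exact permutation p was 0.1667 in Tr1, Th17 and Th2, 0.25 in Th1 and 0.5 in pTh17.

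**Figure D3:**
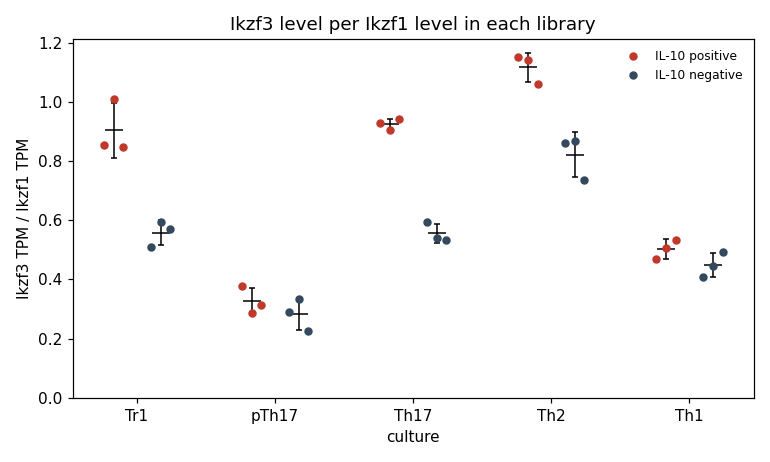
Ikzf3 TPM divided by Ikzf1 TPM in each library (vertical axis, no unit) by culture, IL-10 positive libraries left of IL-10 negative ones, with the mean and SD of 3 libraries. The ratio is at or above 0.848 in IL-10 positive Tr1, Th17 and Th2 libraries and at or below 0.377 in all pTh17 libraries.

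RSEM also reports a length for each gene that is weighted by its transcripts and so moves when their mix moves. Ikzf1 was the only member whose length could vary between libraries, since each other member is listed with a single transcript. The length of Ikzf1 stayed within 5057.36 to 5117.24 bases over all libraries, a narrow band. IL-10 positive libraries were longer without overlap in pTh17 (5081.37 to 5091.62 bases, against 5073.94 to 5077.64 bases in IL-10 negative libraries), where 10.8% of 1869 genes with a varying length also stood apart. They were shorter without overlap in Th1 (5074.99 to 5089.89 bases, against 5095.58 to 5100.41 bases in IL-10 negative libraries), where 14.2% of those genes stood apart. In Tr1, Th17 and Th2 the compartments overlapped.

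Genes that work with Ikaros factors were followed in lists chosen with earlier results of these data known. Of 19 genes of NuRD and other partner complexes, 8 were higher and 6 lower in IL-10 positive cells averaged over the cultures, where 57.8% of all genes tested were called, with a median log2 fold change of 0.07 against -0.00 for all genes. The called gene with the largest average was Ctbp2, a corepressor (log2 fold change -0.66 ± 0.219, edgeR adjusted p = 0.00972), which among single cultures was called in Th17 (-1.21 ± 0.465, edgeR adjusted p = 0.0251). Chd3, a NuRD remodelling ATPase, was lower in every culture, with log2 fold changes between -0.77 ± 0.0774 in Th1 and -0.41 ± 0.0893 in pTh17 and a mean of -0.62 ± 0.0363 (edgeR adjusted p = 1.25e-17). Rbbp7, a histone-binding subunit, averaged 0.48 ± 0.0402 higher (edgeR adjusted p = 5.04e-13) and reached 1.36 ± 0.0885 in Th17 (edgeR adjusted p = 3.72e-16). Gatad2b, another NuRD subunit, averaged lower (log2 fold change -0.36 ± 0.0768, edgeR adjusted p = 0.000105). By culture, the list had 4 higher and 3 lower in Tr1 (34.7% of all genes called), 2 and 1 in pTh17 (18.5%), 8 and 5 in Th17 (58.2%), 2 and 1 in Th2 (21.8%), and 4 and 5 in Th1 (43.8%).

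Among the 5 genes of the cereblon ligase, 2 were higher and 2 lower on average, a comparison that called 57.8% of all genes. Crbn, the substrate receptor, fell by 0.306 ± 0.0834 on the log2 scale in Th17 (edgeR adjusted p = 0.00191) and by 0.235 ± 0.0813 in Th1 (edgeR adjusted p = 0.0176), and was not called in the other 3 cultures. Ddb1, the adaptor, was higher by 0.72 ± 0.0581 in Th17, 0.31 ± 0.0564 in Th2 and 0.27 ± 0.0591 in Th1 (edgeR adjusted p = 1.36e-13, 5.5e-05 and 0.000298). The scaffold Cul4b was lower in pTh17 (log2 fold change -0.41 ± 0.124, edgeR adjusted p = 0.0162) and Th1 (-0.47 ± 0.122, edgeR adjusted p = 0.00162). Cul4a, its paralogue, was higher in Th17 (0.31 ± 0.096, edgeR adjusted p = 0.00563), and the RING subunit Rbx1 was higher in Th1 (0.46 ± 0.0702, edgeR adjusted p = 9.72e-07).

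Of 12 T cell genes that earlier work ties to Ikaros factors, 11 were tested, and the list includes Il10, by which the cells were sorted. It had 4 higher and 3 lower in Tr1 (34.7% of all genes called), 3 and 3 in pTh17 (18.5%), 4 and 5 in Th17 (58.2%), 3 and 0 in Th2 (21.8%), and 4 and 2 in Th1 (43.8%). Il2, the T cell growth factor that Aiolos silences in mouse Th17 cells, was higher in IL-10 positive Th17 cells (log2 fold change 2.64 ± 0.454, edgeR adjusted p = 5.76e-06), where Ikzf3 was not called. Bcl6, a repressor that drives follicular helper T cells, averaged lower over the cultures (log2 fold change -0.76 ± 0.0444, edgeR adjusted p = 1.02e-17), an average of unlike values (F test of equality in edgeR, adjusted p = 8.46e-11). It was -1.36 in Th1, -1.28 in Th17, -0.77 in pTh17 and -0.40 in Tr1, all called, and 0.0055 in Th2 (edgeR adjusted p = 0.983). Ahr, the ligand-activated aryl hydrocarbon receptor, was higher in IL-10 positive Th17 cells (log2 fold change 1.91 ± 0.173, edgeR adjusted p = 4.08e-12) and lower in IL-10 positive pTh17 cells (log2 fold change -0.85 ± 0.244, edgeR adjusted p = 0.01). Ifng, the Th1 cytokine, was higher in pTh17 by 4.25 ± 0.265, in Tr1 by 3.19 ± 0.282, in Th1 by 2.95 ± 0.124 and in Th2 by 1.12 ± 0.253 (edgeR adjusted p under 0.05 in each).

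Since Helios and Eos are known from regulatory T cells, their genes were read beside 8 regulatory T cell markers. Foxp3 was low throughout, at a mean of 2.47 CPM or less in every group of these GFP-negative cells. It was called lower in IL-10 positive Th17 cells (log2 fold change -1.47 ± 0.479, edgeR adjusted p = 0.00863) and in no other single culture. Averaged over the cultures it was also lower (-0.69 ± 0.258, edgeR adjusted p = 0.0222). In IL-10 positive cells 4 of the 8 markers were higher and 1 lower in Tr1 (34.7% of all genes called), 2 and 0 in pTh17 (18.5%), 2 and 3 in Th17 (58.2%), 5 and 2 in Th2 (21.8%), and 4 and 1 in Th1 (43.8%). Averaged over the cultures, the called markers with the largest differences were Il2ra, a chain of the IL-2 receptor (log2 fold change 1.49 ± 0.0319), Gpr83, a G protein-coupled receptor (-1.31 ± 0.0827), the inhibitory receptor Ctla4 (0.93 ± 0.0298) and the integrin Itgae (0.77 ± 0.294). Gpr83 ran both ways by culture, at -3.64 in Th17 and 0.97 in Th2 (edgeR adjusted p = 3.82e-23 and 0.000276). Only Il2ra and Ctla4 were called higher in every culture, and in Th17 Gpr83, Nrp1 (log2 fold change -1.64) and Foxp3 were called lower. The summed level, to which Foxp3 added little, was higher in IL-10 positive than in IL-10 negative libraries of every culture, Th17 included. A higher sum therefore did not mean that all markers were higher. Examples were 552 to 570 against 324 to 347 CPM in Tr1 and 1550 to 1560 against 843 to 890 CPM in Th1. In these cultures Ikzf4 was lower in IL-10 positive cells of both, and Ikzf2 was higher in Tr1 and lower in Th1.

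Over the 30 libraries, the members formed no single pattern. Levels in log2 CPM correlated at r = 0.73 between Ikzf1 and Ikzf2 and at 0.731 between Ikzf3 and Ikzf5, whereas Ikzf4 ran against Ikzf1 (-0.367), Ikzf2 (-0.418) and Ikzf3 (-0.322). These are descriptions over libraries that fall into 10 groups. Among 8850 other genes with a mean of at least 5 CPM, those most like Ikzf1 included Trim12a (r = 0.965), Ptprc, which encodes the CD45 phosphatase (0.96), and Pydc3 (0.958). Those most like Ikzf3 were Coa5 (0.934), Pmm2 (0.913), Supt20 (0.903) and Cstf2t (0.9), and those most like Ikzf4 were Pik3r2 (0.876), Bcl9 (0.865), Mical3 (0.86) and Smad3, a TGF-beta signal transducer (0.85). For Ikzf2, among 8851 genes, they were Rnf138 (0.956), Evi2b (0.941), Smpdl3a (0.941) and Gimap6 (0.933), and for Ikzf5 they were Rbm22 (0.879), Fem1a (0.865), Crkl (0.863) and Smc6 (0.858).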

How the data were processed

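RNA of 30 lysates was sequenced by the submitters, who deposited RSEM gene tables with estimated counts (expected counts), TPM and a transcript-weighted gene length per library. RSEM and the mm10 build are named per the submitters' processing notes; no aligner or version is stated by the sources at hand. No molecular identifiers or strand setting are stated, per the labels. Totals ranged from 4394704 to 11850597 counts, so genes with few reads, such as Ikzf2, are known least precisely.

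Expected counts were rounded to whole numbers, filtered with filterByExpr and fitted for all 30 libraries together (1 mean per group) with edgeR 4.0.16 (TMM, quasi-likelihood F test, R 4.3.3), with Benjamini-Hochberg adjustment over 12611 genes and calls at an adjusted p under 0.05. SEs were derived from the log2 fold change and its F statistic. TPM, as deposited by the authors, gave levels; CPM were TMM-scaled. Correlations used log2 CPM with a prior count of 2. Ratios of 2 members were compared by exact permutation. The fit was tested on simulated counts.

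Replicate libraries correlated at r = 0.971 to 0.9918, and no 2 agreed within sampling noise. Alternatives were RLE scaling, DESeq2 1.42.0, no filter, thinning, fits of the 6 libraries of a culture, a replicate block and leaving out each library. Of the partner and regulatory T cell lists, the 4 called genes with the largest average change were named, and of a list of 5 all genes. Foxp3 was named among the regulatory T cell markers as well. The T cell genes named are some of those among the 4 with the largest called change in a comparison; after the values were seen Dntt, and Il2 in Th1, were left out for few counts, and Foxp3, Il7r, Dtx1 and Tbx21 were not described there; the genes most like a member are the 4 with the highest correlation, leaving out predicted genes and 1 gene that is not reported here. The members and lists were chosen with earlier results of these data known. Sequences and positions are from GENCODE M21.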

Additional observations from a re-analysis of the deposited data

Results flagged for a closer look

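The IL-10 difference of 4 members was not the same in the 5 cultures, by an F test on 4 df of its equality in edgeR, adjusted over all genes. The adjusted p was 2.36e-08 for Ikzf4, which was lower in IL-10 positive Tr1, Th17 and Th1 cells and not called in pTh17 and Th2. It was 6.39e-05 for Ikzf1, whose difference was largest in Th17, and 9.47e-05 for Ikzf2, which was higher in IL-10 positive Tr1 cells and lower in IL-10 positive Th17 and Th1 cells. For Ikzf3, higher in IL-10 positive Tr1 and Th2 cells, it was 0.0121. Such inequality was called for 60.7% of all genes tested.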

How the results depend on the processing

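The counts of genes called in each comparison stayed within 1.5 times under all alternatives run. The Tr1 and Th1 calls of Ikzf4, the Tr1 calls of Ikzf2 and Ikzf3 and the Th17 call of Ikzf1 kept their direction and side of the threshold under each of them. The cause of the changes below was not tested. For Ikzf1 in Th1, the log2 fold change was -0.11 with RLE scaling, -0.11 with DESeq2 and -0.10 with no filter on low counts (adjusted p = 0.148 to 0.388). For Ikzf1 in pTh17 it was -0.16 with RLE, -0.16 with DESeq2, -0.19 with no filter and -0.17 after thinning (adjusted p = 0.0527 to 0.0783). For Ikzf2 it was -0.72 with RLE and -0.72 with no filter in Th1 (edgeR adjusted p = 0.0528 and 0.0501) and -1.07 after thinning in Th17. Fits of the 6 Th2 libraries alone called Ikzf1 (-0.16, edgeR adjusted p = 0.0192) and Ikzf5 (-0.26, edgeR adjusted p = 0.0465), and the mean of Ikzf5 passed with no filter (-0.17, edgeR adjusted p = 0.0254).

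Directions that turned belonged to differences that were not called. Ikzf3 in Th1 was 0.051 with RLE, 0.052 with DESeq2 and 0.059 with no filter, and Ikzf3 in pTh17 was -0.019 after thinning. With no filter, IL-10 positive Ikzf1 was -0.14 for Tr1 minus Th1, and Ikzf5 was -0.093 for Tr1 minus Th17 and -0.013 for Tr1 minus Th2. For IL-10 negative Ikzf4, Tr1 minus pTh17 was -0.0064 with RLE, -0.0065 with DESeq2, -0.052 with no filter and -0.055 after thinning, and Th2 minus Th1 was -0.11 after thinning.

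Same-numbered IL-10 positive and IL-10 negative libraries did not deviate together (r = -0.0934 to 0.107 over 15 pairs, 1 above 0.1), so the numbers were not taken as pairs. With the replicate number as a block, Ikzf1 in pTh17 was -0.18 (edgeR adjusted p = 0.0634) and Ikzf3 in Th1 0.0070, and no other member's call changed.

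Leaving out 1 library at a time, the log2 fold change of IL-10 positive over IL-10 negative cells ranged as follows where a call or a direction changed. For Ikzf1 it ranged over -0.24 to -0.17 in Tr1, -0.20 to -0.14 in pTh17 and -0.21 to -0.12 in Th1. For Ikzf2 the ranges were -2.13 to -1.33 in Th17, -1.29 to 0.12 in Th2 and -0.98 to -0.61 in Th1. For Ikzf3 they were -0.12 to 0.16 in pTh17, 0.26 to 0.37 in Th2 and -0.10 to 0.12 in Th1. Ikzf4 in Th17 ranged over -0.54 to -0.31, Ikzf5 in Th17 over -0.40 to 0.074, with its sign turning without IL-10 negative replicate 12, and the mean of Ikzf5 over -0.19 to -0.10.

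Between cultures, the uncalled differences whose sign turned on 1 library ranged over -0.038 to 0.036 (Ikzf1, Tr1 minus Th1, IL-10 positive), -0.68 to 0.055 (Ikzf2, pTh17 minus Th17, IL-10 negative), -0.074 to 0.18 (Ikzf4, pTh17 minus Th17, IL-10 positive), -0.065 to 0.063 (Ikzf4, Tr1 minus pTh17, IL-10 negative), -0.026 to 0.062 (Ikzf4, Th2 minus Th1, IL-10 negative), -0.046 to 0.21 (Ikzf5, Tr1 minus Th17, IL-10 positive) and -0.090 to 0.38 (Ikzf5, Tr1 minus Th17, IL-10 negative). In CPM in place of TPM, the rank of Th17 moved for Ikzf1, Ikzf3 and Ikzf5. Depth limits Ikzf2 most, with 0 to 15 expected counts per library in Th2 and Th17.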
